A study of Mus musculus with 32 samples.

Results

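The genes described are 9 Polycomb genes, Sfmbt2, Ezh1, Ezh2, Eed, Suz12, Jarid2, Bmi1, Cbx2 and Cbx7, followed through the striatum of 32 mice aged 6 months. They were taken by symbol from the 54532 genes of the count table, and all 9 were among the 16610 genes with enough reads to be tested. Of these, 8 were listed for their place in the Polycomb complexes. Sfmbt2 was listed because of its rise between wild-type and zQ175 mice, so for every one of the 9 genes that comparison is given as a description without a test. The 4 genotypes had 8 mice each: wild-type, Msh3-/-, zQ175 and zQ175:Msh3-/-. Males and females numbered 4 each, except in the zQ175:Msh3-/- group, which had 5 males and 3 females. The zQ175 allele is a knock-in that lengthens the CAG repeat of the mouse Htt gene, the type of mutation behind Huntington's disease, and Msh3 encodes a mismatch repair protein needed for the further growth of such repeats in somatic tissue. The groups were littermates on a C57BL/6J background. Both alleles were carried from conception in every cell, and the Msh3-/- allele came from 1 line made by Cas9 editing, so effects of the lost gene and of that line cannot be told apart. Each library was made from polyadenylated RNA of the whole striatum. In such bulk RNA, fewer cells of a type and less RNA per cell cannot be told apart.

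Polycomb proteins keep developmental genes silent by marking their chromatin. Polycomb repressive complex 2 (PRC2) methylates lysine 27 of histone H3 through Ezh1 or Ezh2, and Polycomb repressive complex 1 (PRC1) attaches ubiquitin to histone H2A and reads the methyl mark through its Cbx proteins. Sfmbt2 carries MBT repeats, which bind methylated lysines, and belongs to a family whose fly relative works with a DNA-binding protein related to mammalian Yy1. In adult striatal neurons, PRC2 is known for holding non-neuronal and developmental genes off. The comparison that was tested set zQ175:Msh3-/- mice against Msh3-/- mice, because those 16 mice are not in the comparison named for the choice of Sfmbt2. The genes were nonetheless picked with earlier results of these data known. It asks what the expanded allele changed in animals that lacked Msh3.

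The libraries held between 12359347 and 25030335 counted reads. The 7 markers of striatal spiny neurons were abundant in every mouse. Their summed level was 6319 to 8358 TMM-scaled CPM (counts divided by library size in units of 1000000 reads) in the Msh3-/- mice and 3679 to 4614 CPM in the zQ175:Msh3-/- mice, and all 7 were called lower. Markers of cortical neurons summed to between 35.5 and 655 CPM over the 32 mice and those of choroid plexus to between 19.0 and 2917 CPM, with 0 of 5 and 0 of 4 called by edgeR in the tested comparison. All 5 cortical markers were nonetheless higher in the zQ175:Msh3-/- mice, at 0.42 to 0.84 (log2), and all 4 choroid plexus markers lower, at -0.69 to -0.12. Of the 4 mice whose cortical markers summed to over 400 CPM, 3 were zQ175:Msh3-/- and 1 was Msh3-/-. Of the other lists, 1 of 3 thalamus markers was called lower and 0 were called among markers of astrocytes, oligodendrocytes and their precursors, microglia, endothelial cells and dividing cells. At any fold, 4 of 5 microglia and 2 of 5 astrocyte markers had an adjusted p under 0.05 by edgeR, all lower, where 24.1% of all tested genes had one. All 4 endothelial markers were lower, at -0.19 to -0.16 (log2), and the 3 tested markers of dividing cells higher, at 0.32 to 0.61. None of these had an adjusted p under 0.05. Msh3 itself was at 24.5 ± 1.61 CPM in wild-type and 11.8 ± 1.197 CPM in Msh3-/- mice (mean ± SD, n = 8), with no overlap. Its count covers the whole gene, including exons outside the targeted part. A gene was called where edgeR's quasi-likelihood test gave a Benjamini-Hochberg adjusted p under 0.05 over all tested genes and the fold change was at least 1.2. By that rule 10.6% of the tested genes were called between zQ175:Msh3-/- and Msh3-/- mice, 4.68% higher and 5.96% lower.

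Sfmbt2 rose in the zQ175:Msh3-/- mice, and it was the only one of the 9 genes that was called. In the Msh3-/- mice its lowest, median and highest levels were 2.67, 3.03 and 3.53 CPM. In the zQ175:Msh3-/- mice they were 7.09, 8.44 and 10.0 CPM. The groups did not overlap, and the lowest zQ175:Msh3-/- mouse lay above every Msh3-/- mouse by more than the whole range of the latter group. Groups that did not overlap were found for 5.39% of all tested genes. The difference was 1.46 on the log2 scale (SE 0.0996, 95% interval 1.26 to 1.66), a 2.75-fold rise, with an adjusted p of 7.55e-14 by edgeR's quasi-likelihood test. The exact two-sided permutation test of the 8 against 8 mice gave p = 0.000155, the smallest p that 8 against 8 mice allow. EdgeR estimated the spread from all 32 mice, those that chose Sfmbt2 among them, whereas the permutation test compared only these 2 groups. Males and females showed the same order. Male mice averaged 3.17 ± 0.312 CPM in Msh3-/- (n = 4) and 8.36 ± 0.604 CPM in zQ175:Msh3-/- (n = 5), and females averaged 2.96 ± 0.230 CPM (n = 4) and 8.50 ± 1.48 CPM (n = 3). Among the genes that were higher in this comparison Sfmbt2 had the smallest p, and it ranked 10th of 16610 by log2 fold change. The spiny neuron markers moved in the same mice, in the opposite direction, and their part in the rise of Sfmbt2 was not tested.

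The values that led to its choice lay at a similar height. Sfmbt2 was at 2.27, 2.51 and 3.78 CPM in wild-type mice (lowest, median, highest) and at 6.81, 7.58 and 10.0 CPM in zQ175 mice, a log2 difference of 1.59. In this second pair 11.6% of the tested genes were called, and nothing is read from that share for a gene picked from it. Over the 32 mice 3015 reads were assigned to Sfmbt2, and single mice had 30 to 205 of them, so it is a low gene measured with moderate counting error.

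**Figure D1:**
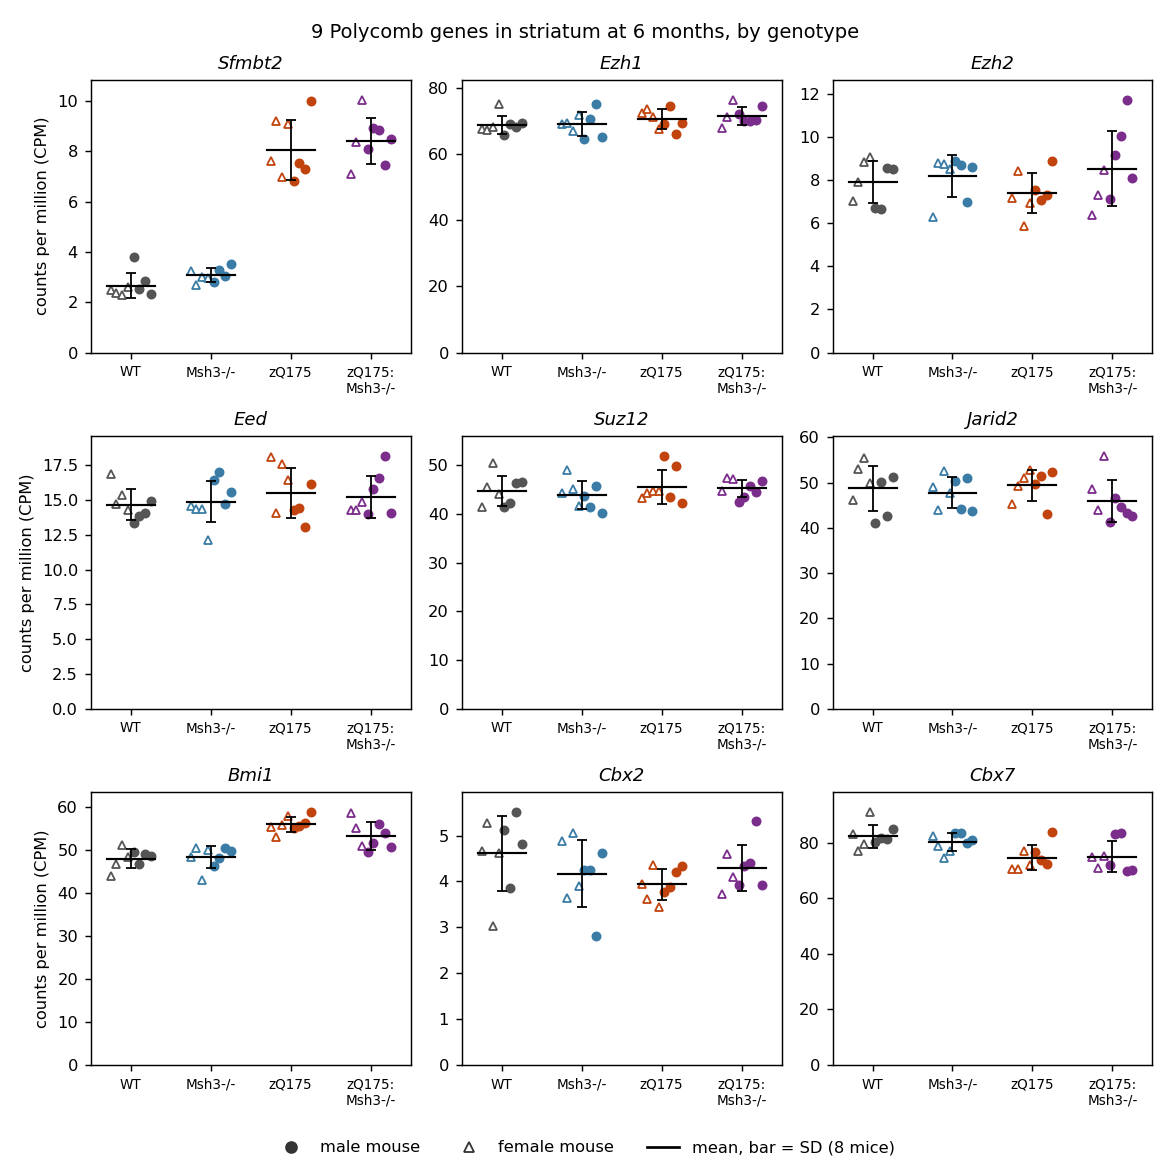
Level of each of the 9 genes in every mouse, in CPM on axes that start at 0, by genotype. Filled circles are males, open triangles females, the line is the mean and the bar the SD of 8 mice. Sfmbt2 sits at 2.27 to 3.78 CPM without and 6.81 to 10.0 CPM with the zQ175 allele, while the groups of Ezh1, Ezh2, Eed, Suz12, Jarid2, Cbx2 and Cbx7 overlap.

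Sfmbt2 (ENSMUSG00000061186) lies on chromosome 2 of GRCm38, chr2:10370510-10595253 on the plus strand, and GENCODE gives it 7 transcripts. Of these, 3 begin at a first start and 4 at a second start further downstream, inside the span of the first 3, and only 2, both from the second start, run to the far end of the gene. The promoter sequences of both starts are shown because the deposited gene counts add the transcripts of both, together with those of Bmi1, the other gene of the 9 with a difference past the adjusted threshold, and of Cbx8, a called neighbour of Cbx2 described further on. They come from RefSeq on GRCm38.p6, were taken immediately upstream of each start (for Cbx8, upstream of the annotated first exon), and run 5′ to 3′ on the gene's own strand. Capitals mark the 7-letter motif CCATNTT, the core of the site bound by Yy1.
Sfmbt2 first start, chr2:10370201-10370450, plus strand: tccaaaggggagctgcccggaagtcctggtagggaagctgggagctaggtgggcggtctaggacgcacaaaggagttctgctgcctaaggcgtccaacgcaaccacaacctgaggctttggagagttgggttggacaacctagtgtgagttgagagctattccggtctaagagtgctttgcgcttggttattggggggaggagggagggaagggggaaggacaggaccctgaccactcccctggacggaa
Sfmbt2 second start, chr2:10372186-10372435, plus strand: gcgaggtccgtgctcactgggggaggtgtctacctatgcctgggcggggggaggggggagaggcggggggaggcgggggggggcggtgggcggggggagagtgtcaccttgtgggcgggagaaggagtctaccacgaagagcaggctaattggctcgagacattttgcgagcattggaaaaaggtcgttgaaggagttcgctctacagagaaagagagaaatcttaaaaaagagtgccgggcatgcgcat
Bmi1, chr2:18676768-18677017, plus strand: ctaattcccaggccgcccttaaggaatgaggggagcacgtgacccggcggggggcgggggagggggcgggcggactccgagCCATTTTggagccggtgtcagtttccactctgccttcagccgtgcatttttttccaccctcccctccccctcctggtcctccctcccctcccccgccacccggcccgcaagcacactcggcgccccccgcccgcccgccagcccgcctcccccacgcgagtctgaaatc
Cbx8, chr11:119040970-119041163, minus strand: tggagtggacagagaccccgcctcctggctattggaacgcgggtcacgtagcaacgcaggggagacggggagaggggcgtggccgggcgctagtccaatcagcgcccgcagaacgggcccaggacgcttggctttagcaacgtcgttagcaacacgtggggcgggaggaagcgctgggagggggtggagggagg
The 30 bases that begin at the last base upstream of the second Sfmbt2 start hold the motif with its first base at position 11, counted from 1 at the start.
Sfmbt2 across the second start, chr2:10372435-10372464, plus strand: tagagaggatgCCATATTggaatgaggctg
CCATNTT or its reverse complement AANATGG was looked for on both strands in windows of 250 bases before to 50 bases after each start. It was present in 5281 of the 32851 RefSeq windows (16.1%). RefSeq windows were given for 8 of the 9 genes, and 4 of their 10 windows held it: 1 of 2 of Sfmbt2, 1 of 2 of Jarid2, and those of Bmi1 and Cbx7. A match describes letters and is not a binding site. The dinucleotide CG, the substrate of DNA methylation, occurred 9 and 16 times in the first and second Sfmbt2 window, 23 times in that of Bmi1 and 24 times in that of Cbx8, against a median of 7 over all windows and 23 over the windows of the members.

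A cluster of 119 annotated microRNA genes lies within Sfmbt2, between 10465287 and 10518279, and none of them overlaps an Sfmbt2 exon. None of the 119 had a read in any mouse, and polyA-selected libraries do not measure mature microRNAs. The overlapping non-coding gene Gm13261 had 7 reads over the 32 mice. Whether counting used the strand is not given in the sources used here, but against the 3015 reads of Sfmbt2 those of Gm13261 were few. Against 10.6% of all tested genes, 1 of the 10 genes tested within 1 Mb of Sfmbt2 was called. This was Pfkfb3, a regulator of glycolysis, which fell from 55.1 ± 5.70 CPM in Msh3-/- to 44.2 ± 1.93 CPM in zQ175:Msh3-/- mice (n = 8 each, log2 difference -0.32, adjusted p = 0.00113 by edgeR). The nearest tested genes on either side, Itih5 at 114 kb and Prkcq at 576.9 kb, had log2 differences of -0.03 and 0.24 (adjusted p = 0.713 and 0.0727 by edgeR).

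The PRC2 genes among the members showed no difference that passed the test on counts. On the TPM scale Ezh1 was at 0.11 (log2, adjusted p = 0.0453 by limma) and Suz12 at 0.11 (adjusted p = 0.118 by limma), where the median of all genes was 0.08, and the exact permutation test there gave unadjusted p = 0.000622 and 0.0202. Ezh2 (chr6:47530139-47595341, minus strand), the methyltransferase typical of dividing cells, was at 6.29, 8.65 and 8.89 CPM in Msh3-/- mice (lowest, median, highest) and at 6.40, 8.28 and 11.7 CPM in zQ175:Msh3-/- mice. The ranges lay over each other, and 3 of the 8 zQ175:Msh3-/- mice were above every Msh3-/- mouse. The log2 difference was 0.06 (95% interval -0.15 to 0.26, adjusted p = 0.747 by edgeR). Its highest mouse, male 4 of the zQ175:Msh3-/- group at 11.7 CPM, also had the highest summed level of the 4 markers of dividing cells among the 32 mice, 15.7 CPM. That mouse had the highest summed level of choroid plexus markers too, 2917 CPM, and the part of either in its Ezh2 level was not tested. Without this mouse the difference of Ezh2 was -0.02, so its sign rested on 1 animal.

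Ezh1 (chr11:101191115-101226463, minus strand), the methyltransferase that prevails in cells that no longer divide, was at 64.6, 69.4 and 75.3 CPM in Msh3-/- mice and at 68.0, 70.8 and 76.5 CPM in zQ175:Msh3-/- mice. Its interval was the tightest of the 9 genes, a fold of 1.03 with a 95% interval of 0.988 to 1.084 (adjusted p = 0.303 by edgeR). Per transcript length, Ezh1 exceeded Ezh2 in every mouse. The ratio of Ezh1 to Ezh2, in TPM (read counts divided by transcript length and scaled to a total of 1000000), was 4.56 ± 0.636 in Msh3-/- and 4.67 ± 0.647 in zQ175:Msh3-/- mice (n = 8 each), a log2 difference of 0.03 with p = 0.750 by the exact permutation test. In wild-type and zQ175 mice the ratio was 4.88 ± 0.686 and 5.65 ± 0.751.

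Eed (chr7:89954654-89980983, minus strand) binds the methyl mark that PRC2 makes, and Suz12 (chr11:79993106-80034123, plus strand) holds the complex together. Eed ranged from 12.1 to 17.0 CPM in Msh3-/- and from 14.0 to 18.2 CPM in zQ175:Msh3-/- mice, with medians of 14.6 and 14.5 CPM. Suz12 ranged from 40.2 to 49.1 CPM and from 42.4 to 47.5 CPM, with medians of 44.0 and 45.2 CPM. Both genes overlapped almost completely between the groups. The fold was 1.02 for Eed (95% interval 0.929 to 1.13, adjusted p = 0.767 by edgeR) and 1.03 for Suz12 (0.967 to 1.10, adjusted p = 0.524 by edgeR). Jarid2 (chr13:44729474-44921643, plus strand), which helps to bring PRC2 to its targets, was at 43.7, 48.3 and 52.5 CPM in Msh3-/- mice and at 41.4, 44.3 and 55.9 CPM in zQ175:Msh3-/- mice. Of the latter, 3 lay below every Msh3-/- mouse and 1 lay above them all, and the fold was 0.960 (95% interval 0.882 to 1.04, adjusted p = 0.519 by edgeR). The sign for Jarid2 turned to 0.03 (log2) on the TPM scale. For these 5 PRC2 genes the intervals stayed inside a 1.2-fold change in either direction.

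Bmi1 (chr2:18677018-18686629, plus strand), the subunit that partners the ubiquitin ligase Rnf2 in canonical PRC1, was higher by a small amount. It was at 43.2, 49.1 and 50.4 CPM in Msh3-/- mice and at 49.4, 52.8 and 58.7 CPM in zQ175:Msh3-/- mice. Of the 8 zQ175:Msh3-/- mice, 7 lay above every Msh3-/- mouse. The log2 difference was 0.14 (SE 0.0368, 95% interval 0.07 to 0.22), a 1.10-fold rise with an adjusted p of 0.00391 by edgeR and p = 0.00186 by the exact permutation test. It thus passed the adjusted threshold, as 24.1% of the tested genes did, without reaching the 1.2-fold limit. Without the 7 mice rich in choroid plexus markers the difference was 0.10 with an adjusted p of 0.0818 by edgeR. In the mice with intact Msh3, Bmi1 was at 43.9, 48.5 and 51.1 CPM in wild-type and at 52.9, 55.7 and 58.8 CPM in zQ175, a log2 difference of 0.22.

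Cbx7 and Cbx2 are alternative readers of the methyl mark within PRC1. Cbx7 (chr15:79915807-79971119, minus strand), the more abundant, was at 74.4, 80.5 and 83.6 CPM in Msh3-/- mice and at 70.0, 73.4 and 83.6 CPM in zQ175:Msh3-/- mice. Of the latter, 4 lay below every Msh3-/- mouse, yet the highest mice of both groups were level. The log2 difference of -0.09 (95% interval -0.18 to -0.01) had an adjusted p of 0.0907 by edgeR and did not pass, while the exact permutation test of this gene alone gave an unadjusted p = 0.0406, one of 19 such tests. Cbx2 was at 2.80, 4.24 and 5.06 CPM and at 3.73, 4.22 and 5.31 CPM. Its medians were level, and its fold of 1.03 had a 95% interval of 0.881 to 1.196 (adjusted p = 0.842 by edgeR). In wild-type and zQ175 mice the medians were 81.6 and 73.1 CPM for Cbx7 and 4.74 and 3.91 CPM for Cbx2, log2 differences of -0.14 and -0.23.

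**Figure D2:**
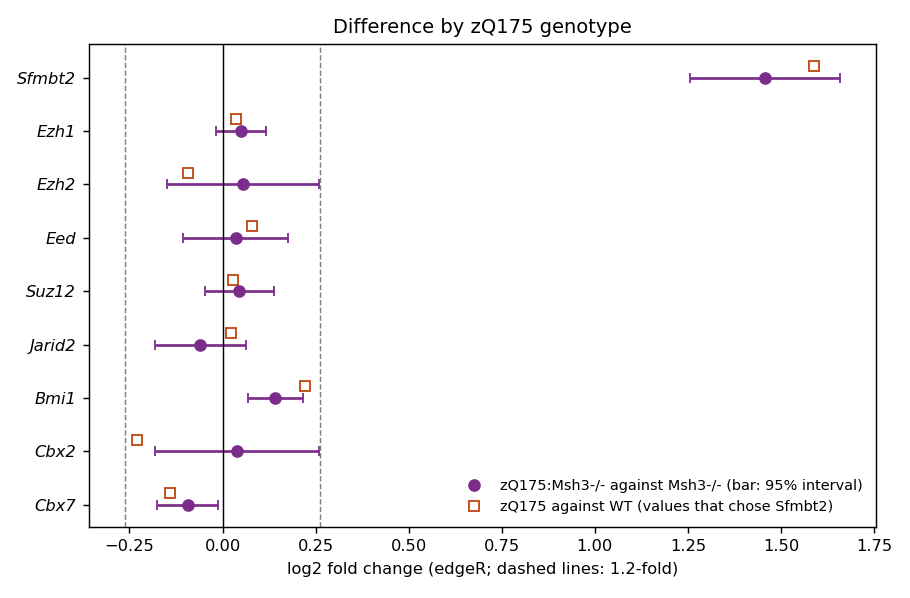
Log2 fold change of the 9 genes by zQ175 genotype. Filled circles with bars are zQ175:Msh3-/- against Msh3-/- mice with the 95% interval, open squares zQ175 against wild-type mice, the values that chose Sfmbt2, and dashed lines mark a 1.2-fold change. Sfmbt2 stands at 1.46 and 1.59, and the other 8 genes lie between -0.23 and 0.22.

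Cbx2 has a called neighbour of the same family on chromosome 11. Cbx2 (chr11:119022962-119031270, plus strand) is followed after 5.04 kb by Cbx8 (chr11:119036305-119040969, minus strand), which encodes another PRC1 reader of the methyl mark. Cbx8 was at 7.26, 10.5 and 11.7 CPM in Msh3-/- mice and at 14.6, 17.3 and 20.8 CPM in zQ175:Msh3-/- mice. The groups of Cbx8 did not overlap, whereas those of Cbx2 did. The rise of Cbx8 was 1.71-fold (95% interval 1.53 to 1.92, adjusted p = 2.03e-09 by edgeR). The upper bound of Cbx2, 1.196, lay under the lower bound of its neighbour, though the difference between the genes was not tested. In wild-type and zQ175 mice, the log2 differences were 0.67 for Cbx8 and -0.23 for Cbx2.

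**Figure D3:**
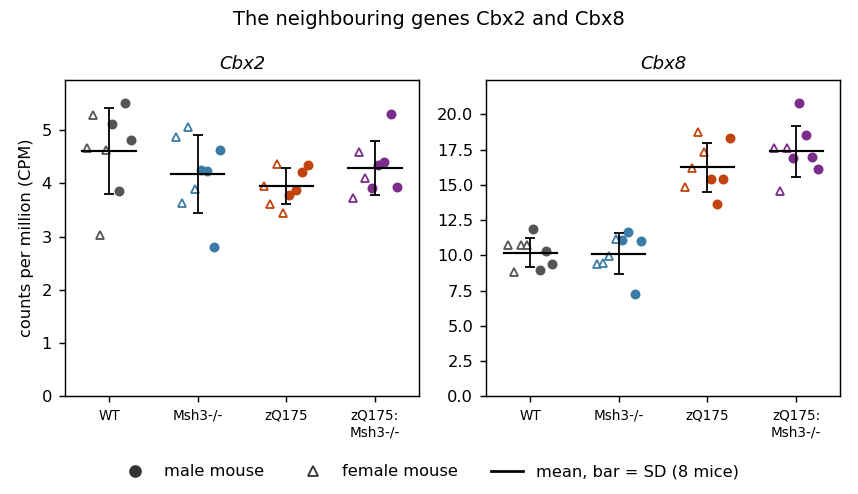
Levels of Cbx2 and Cbx8 in every mouse, in CPM on axes that start at 0. Filled circles are males, open triangles females, the line is the mean and the bar the SD of 8 mice. Cbx8 in both zQ175 genotypes lies above both genotypes without the allele, and Cbx2 overlaps among all 4.

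Levels of different genes were compared only per length, on the TPM scale. In wild-type mice Cbx7 was the highest of the 9 genes at 54.7 ± 2.64 TPM (n = 8), followed by Ezh1 at 42.1 ± 2.64, Bmi1 at 32.1 ± 1.61, Suz12 at 23.7 ± 1.63, Jarid2 at 20.3 ± 2.05, Eed at 20.2 ± 2.30, Ezh2 at 8.77 ± 1.23, Cbx2 at 2.95 ± 0.551 and Sfmbt2 at 0.988 ± 0.192 TPM. Neighbours in this order had separate ranges, except that Suz12 overlapped Jarid2, though it was higher in 8 of 8 mice, and that Jarid2 and Eed could not be ranked, Jarid2 being higher in 4 of 8. Sfmbt2 was thus the lowest of the 9 genes in wild-type mice, and it was also the lowest in Msh3-/- mice at 1.11 ± 0.134 TPM. With the zQ175 allele it reached the level of Cbx2. It was at 2.99 ± 0.424 TPM against 2.62 ± 0.282 for Cbx2 in zQ175 mice, and at 3.20 ± 0.416 against 2.85 ± 0.388 TPM in zQ175:Msh3-/- mice. The ranges overlapped, with Sfmbt2 above Cbx2 in 6 of 8 and in 7 of 8 mice. Even so, Sfmbt2 remained well under Ezh2, at 8.16 ± 1.16 and 10.1 ± 1.38 TPM in those groups.

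**Figure D4:**
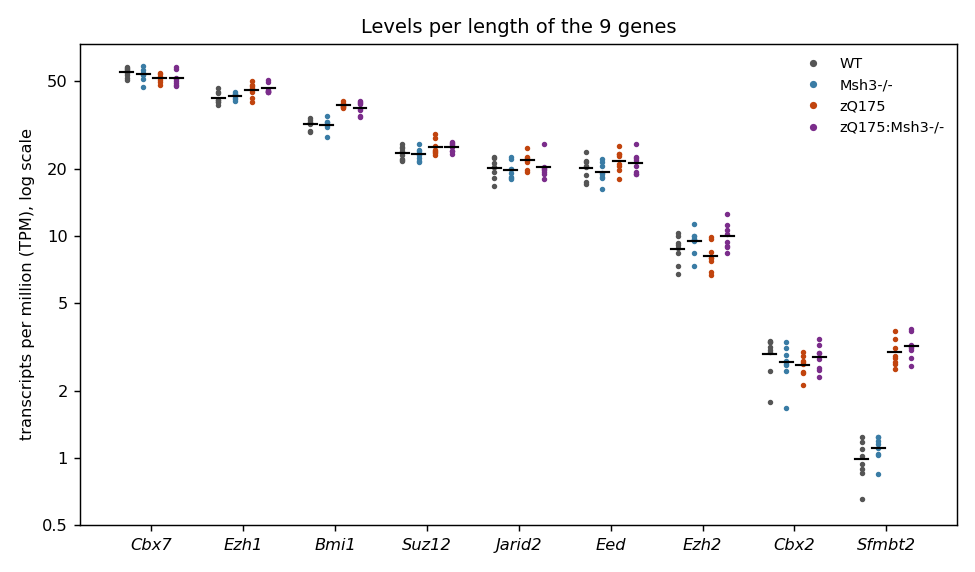
Level per length of the 9 genes in TPM on a log axis, one point per mouse and a line at the mean of 8 mice, by genotype. Sfmbt2 has means of 0.988 and 1.11 TPM without and 2.99 and 3.20 TPM with the zQ175 allele, where its points overlap those of Cbx2, and the other genes keep their order, except that Eed and Jarid2 lie at the same height.

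Loss of Msh3 alone was compared with wild-type, and loss of Msh3 on the zQ175 allele with zQ175. Both comparisons share mice with the pair that chose Sfmbt2. Of the tested genes, 0.00602% (1 gene, Msh3) were called in each. Of the 8 members other than Sfmbt2, 0 were called by edgeR, as by DESeq2 and limma. At an unadjusted p under 0.05 by edgeR there were 0 between Msh3-/- and wild-type mice, where 846 of the 16610 tested genes had one. Between zQ175:Msh3-/- and zQ175 mice there was 1, Ezh2, where 614 of all tested genes had one. Ezh2 was at 5.88, 7.25 and 8.89 CPM in zQ175 mice against the 6.40, 8.28 and 11.7 CPM of zQ175:Msh3-/- mice, a log2 difference of 0.21 with an adjusted p of 0.999 by edgeR. For Sfmbt2, the log2 difference was 0.06 on the zQ175 allele and 0.19 without it, given as values only because the zQ175 and wild-type mice chose the gene. Whether the zQ175 effect itself differed with Msh3 was asked by an interaction term, which uses the mice that chose Sfmbt2. It called 0% of all genes with edgeR, as with DESeq2 and limma. By edgeR, 0 of the 8 members other than Sfmbt2 had an unadjusted p under 0.05, where 737 of the 16610 tested genes had one. It was 0.27 for Cbx2 (95% interval -0.04 to 0.58) and -0.08 for Bmi1 (-0.19 to 0.03), each with an adjusted p of 0.999 by edgeR. For Sfmbt2 its value was -0.13, which is a description and no test.

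Sex, which played no part in the choice of genes, was tested over the 32 mice with genotype in the model. It called 0.169% of all genes and, with edgeR, DESeq2 or limma, 0 of the 9. The largest difference was that of Jarid2, at -0.09 (log2, male minus female, adjusted p = 0.471 by edgeR). It was the only member with an unadjusted p under 0.05, where 1546 of the 16610 tested genes had one. Ezh2 was at 0.08 and Sfmbt2 at 0.05 (adjusted p = 0.767 and 0.926 by edgeR). Among the other Polycomb complex genes Kdm6a, which removes the methyl mark and is X-linked and known to escape X inactivation, was lower in males by 0.51 on the log2 scale (SE 0.0288, adjusted p = 8.98e-16 by edgeR). Group means were 40.5 to 44.7 CPM in females and 29.01 to 31.7 CPM in males.

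The other genes of the complexes were taken from lists that hold 63 genes with the members, of which 62 were tested and 1, Ezhip, was not in the annotation. Between zQ175:Msh3-/- and Msh3-/- mice, 5 of the 53 tested genes other than the 9 were called, all 5 higher. That is 9.43%. Of all tested genes, 10.6% were called in either direction, 4.68% higher and 5.96% lower. The shares were not compared by a test. Between zQ175 and wild-type mice 3 of the 53 were called, all 3 higher (5.66%, against 11.6% of all genes in either direction). Of all 16610 tested genes, 781 were called higher there. L3mbtl3 and Scml2, at 0.20 and 0.57 (log2), were not among the 3. The median log2 difference of the 53 in the tested comparison was 0.02, against 0.01 over all genes. A further 13 had an adjusted p under 0.05 with less than a 1.2-fold change, 4 higher and 9 lower. At any fold, 18 of the 53 had an adjusted p under 0.05 by edgeR, where 24.1% of all tested genes did. The groups did not overlap for 3 of the 62, Cbx8, Sfmbt2 and Bap1, where 5.39% of all tested genes had groups that did not overlap. Bap1, the enzyme that removes ubiquitin from H2A, was the lower one at -0.16 (log2, adjusted p = 0.000465 by edgeR).

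By role, the calls fell as follows, and no test compared the lists. None of the 6 PRC2 core and histone-binding genes, of the 8 tested accessory subunits, of the 8 RING and PCGF genes or of the 13 partners of variant PRC1 was called by edgeR. The adjusted p alone was under 0.05 for 1, 1, 3 and 3 of them and the unadjusted p for 1, 3, 3 and 3. Over all 16610 tested genes, 4002 (24.1%) had an adjusted and 5803 an unadjusted p under 0.05. Rbbp7, a histone-binding subunit shared with other complexes, was at -0.16 (log2), and Rnf2, the catalytic ubiquitin ligase, at 0.16 (adjusted p = 0.000126 and 0.0124 by edgeR). Of the 4 Cbx genes Cbx8 was called. Of the 6 PHC and SCM genes 1 was called, Scml2, a low gene that went from 0.785 ± 0.284 to 1.29 ± 0.456 CPM (n = 8 each, adjusted p = 0.0289 by edgeR). Its result differed in 6 of 15 alternatives, among them DESeq2, where the call was lost (adjusted p = 0.0553). Of the 7 MBT and Yy1 genes Sfmbt2 and L3mbtl3 were called. L3mbtl3, another MBT-repeat gene, rose from 19.2 ± 1.99 to 23.7 ± 1.66 CPM (adjusted p = 9.01e-05 by edgeR), and Sfmbt1, the close relative of Sfmbt2, had a log2 difference of -0.08 (adjusted p = 0.151 by edgeR). Of the 8 genes of the H2A deubiquitinase complex Asxl3 was called, at 8.26 ± 0.708 and 10.3 ± 0.920 CPM (adjusted p = 0.00456 by edgeR), a call lost without the 4 mice rich in cortical markers (adjusted p = 0.0754). Of the 2 demethylases of the mark Kdm6b was called, at 33.7 ± 4.64 and 42.0 ± 4.77 CPM (adjusted p = 0.00123 by edgeR), and Kdm6a was not (adjusted p = 0.716).

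**Figure D5:**
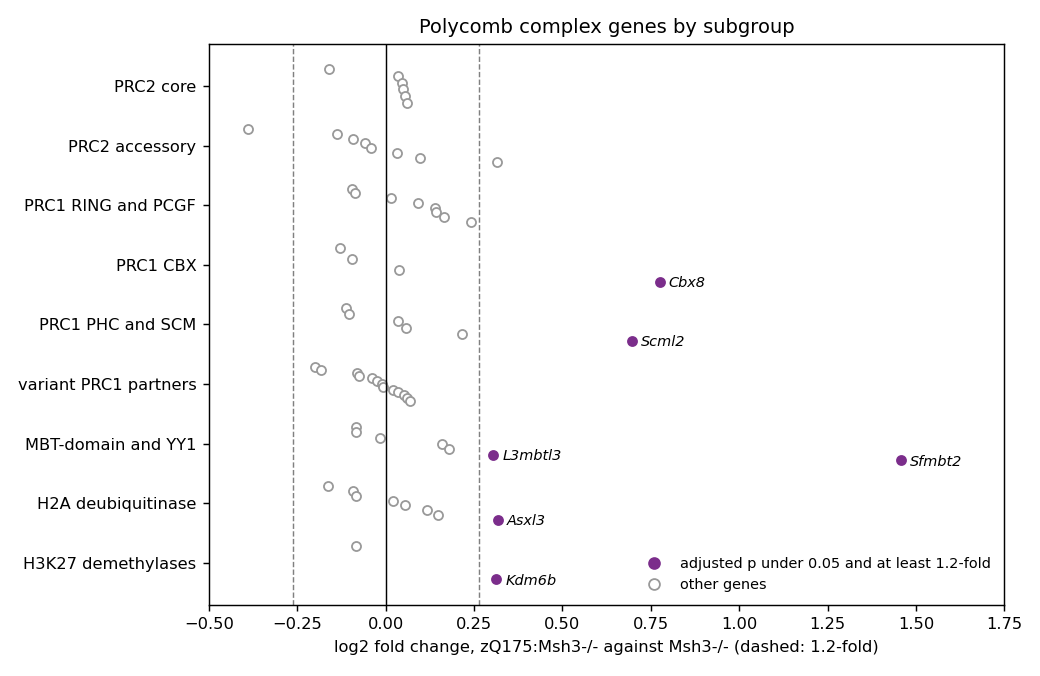
Log2 fold change of 62 Polycomb complex genes between zQ175:Msh3-/- and Msh3-/- mice, one point per gene by subgroup. Filled points have an adjusted p under 0.05 and a change of at least 1.2-fold (dashed lines), open points are the other genes. The 6 filled points, Sfmbt2 at 1.46 among them, all lie to the right.

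Genes known as Polycomb targets during development were counted from a list of 71, made of 39 Hox genes, the 2 genes of the Ink4 locus and 30 other regulators. Most had too few reads: 13 had none, 49 had some but were not tested, and 9 were tested. Of the 9, 4 were called higher and 0 lower, but genes nearly silent in 2 genotypes can enter the test only through the groups in which they are high, so no share is read from these 9. Wt1, a transcription factor of kidney and gonad development, had 9 reads over the 8 Msh3-/- mice and 211 over the 8 zQ175:Msh3-/- mice, and 12 and 290 in wild-type and zQ175 mice. In CPM its lowest, median and highest values were 0, 0.0806 and 0.160 in Msh3-/- and 0.843, 1.42 and 3.01 in zQ175:Msh3-/- mice, so the groups were far apart. Onecut1, a regulator of liver and neuronal development, had 10 and 192 reads in the same groups. No fold or test is given for Wt1 and Onecut1, which passed the filter on low counts through the groups where they are high. En2, a homeobox gene of the midbrain and cerebellum, went from 1.91 ± 0.322 to 2.76 ± 0.710 CPM (adjusted p = 0.0168 by edgeR), and Nkx2-2, a homeobox gene of ventral neural tube and oligodendrocyte precursors, from 7.55 ± 1.19 to 9.69 ± 1.69 CPM (adjusted p = 0.0159 by edgeR). Nkx2-2 lost its call without the 4 mice rich in cortical markers (log2 difference 0.36, adjusted p = 0.0522 by edgeR), and En2 lost its call without zQ175:Msh3-/- male 3 (log2 difference 0.40).

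Summed over the 39 Hox genes, 61 reads were counted in the Msh3-/- and 144 in the zQ175:Msh3-/- mice, and 59 and 225 in wild-type and zQ175 mice. The median of the summed level was 0.4996 and 1.16 CPM in the first pair and 0.391 and 1.59 CPM in the second. Without the filter on low counts, 58 of the 71 target genes could be fitted and 7 were called higher and 0 lower, where 5.1% of 32560 genes were called and 2.05% were called higher. That fit still needs a read in some mouse, so genes silent without the zQ175 allele enter it only through the zQ175 groups. The 7 include Wt1 and Onecut1, and no share is read from them. The 3 added genes were Hoxa7, with 9 and 32 reads, Hoxc4, with 0 and 16, and Hoxc6, with 0 and 7. With so few reads these are differences near the limit of detection, and no fold or p is given. The Ink4 locus, a textbook PRC1 and PRC2 target, had 63 and 100 reads and was not called.

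The genes whose levels ran most like that of Sfmbt2 over the 32 mice, by Pearson correlation of log2 CPM, were Polr2a (0.957), Onecut1 (0.950), A830036E02Rik (0.947) and Fat1 (0.941). All mice share the same genotype split, so these values mostly describe the step between genotypes. By Spearman correlation the first was Telo2 (0.859), and none of these 4 genes was among its first 5. After genotype means were subtracted, the 5 highest Pearson correlations were 0.584 to 0.611, with Gm47483 first, and the 5 highest Spearman correlations 0.579 to 0.636, with Taf5l first. Among the members Bmi1 was at 0.761 and Cbx7 at -0.575 over all mice by Pearson correlation. Once genotype means were subtracted, Bmi1 was at 0.0049, Cbx7 at 0.184 and Suz12, the member furthest from 0, at -0.461. No test was made of these values.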

How the data were processed

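Striatal RNA of 32 mice was analysed. The authors deposited raw read counts per gene and a length-normalized table whose columns sum to 1000000, so it was read as TPM although named FPKM. The submitters' processing notes name GRCm38.p6, and aligner, counter and strand setting are not given in the sources used here. Ensembl identifiers were matched to GENCODE M21 (54495 matched). Libraries held 12359347 to 25030335 counts, and 3 reads in the shallowest are 2.43e-05% of it. Intervals cover spread between these mice. Counts were fitted with edgeR 4.0.16 in R 4.3.3 (TMM, filterByExpr, robust quasi-likelihood, 1 model of 4 genotypes), with Benjamini-Hochberg adjustment over 16610 genes. CPM are TMM-scaled. TPM were tested with limma 3.58.1 on log2(TPM + 0.1), which understates low genes, and DESeq2 1.42.0 was an alternative. Exact permutation tests were two-sided and unadjusted, over 19 genes. The scripts were tested on simulated data. Members and gene lists were chosen with earlier results of these data known. Named were the 9 members, list genes called between zQ175:Msh3-/- and Msh3-/- mice (up to 15), called genes within 1 Mb of Sfmbt2 and its closest genes by correlation; Rbbp7, Rnf2, Bap1, Sfmbt1, Kdm6a, the nearest neighbours and the 3 Hox genes were chosen after their values were seen. Mice sharing a replicate number were not paired. The labels give no batch. A listed item is not reported here and was left out of the lists. No 2 libraries of a group were alike within sampling noise (lowest chi-square per degree of freedom 4.26 over 112 pairs).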

Additional observations from a re-analysis of the deposited data

Results flagged for a closer look

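In 72 sets of 8 mice, 18 genes in 4 genotypes, the highest or lowest mouse was compared with its group by Dixon's ratio of gap to range, and 3 exceeded its 95% critical value. Chance gives about 1 in 20, or 3.6 here. The highest wild-type mouse for Sfmbt2 (ratio 0.567) was a male at 3.78 CPM, with the others at 2.27 to 2.83 CPM. The highest wild-type mouse for Ezh1 (ratio 0.601) was a female at 75.3 CPM, with the others at 66.0 to 69.5 CPM. The lowest Msh3-/- mouse for Cbx8 (ratio 0.535) was a male at 7.26 CPM, with the others at 9.36 to 11.7 CPM, and it too stayed below every zQ175:Msh3-/- mouse.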

How the results depend on the processing

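The rise of Sfmbt2 between Msh3-/- and zQ175:Msh3-/- mice passed the threshold under all 16 alternatives, at 0.99 to 1.53 on the log2 scale, and in the 32 fits that left out 1 mouse, at 1.42 to 1.49. The lowest value came from limma on log2(TPM + 1). Cbx8 stayed past the adjusted threshold in the same fits. Other called list genes were less stable. Their result differed in 6 of 15 alternatives for Scml2, and in 5 of 16 for Asxl3, 4 for En2, 3 for Nkx2-2, 2 for Kdm6b and 1 for L3mbtl3. Among the 32 fits, Scml2 weakened in 6 and En2 in 1. Depth limits Sfmbt2, Cbx2, Scml2 and the target genes, and arrangements of 8 against 8 mice limit exact p to 0.000155.

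Genes called between Msh3-/- and zQ175:Msh3-/- mice numbered 1067 in females alone, 4002 by adjusted p alone and 503 at 1.5-fold, and members called numbered 2 by adjusted p alone. Between wild-type and zQ175 mice, genes called numbered 1180 in males alone, 4398 by adjusted p alone and 538 at 1.5-fold. Calls of members are not given for this pair, which chose Sfmbt2. Between wild-type and Msh3-/- mice, 3 genes were called in males alone. For sex, 18 genes were called with at least 10 counts in every mouse, 16 from TPM without a filter, 17 without the choroid-rich mice, 52 by adjusted p alone and 12 at 1.5-fold. Polycomb genes other than the members numbered 3 in males alone, 3 in females alone, 18 by adjusted p alone and 2 at 1.5-fold. On the TPM scale the unadjusted p of the exact permutation test was under 0.05 for Ezh1 at 0.11 and Suz12 at 0.11, and no longer for Cbx7 at -0.058. The difference of Jarid2 turned to 0.035 there. The causes of these changes were not tested.

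Leaving out 1 mouse gave 1580 to 1853 genes and 1 to 1 members in the tested comparison, 1786 to 2040 genes between wild-type and zQ175 mice, 19 to 32 genes for sex and 4 to 6 Polycomb genes. Ezh2 ran from -0.022 to 0.10, Eed from -0.0046 to 0.067 and Cbx2 from -0.022 to 0.085. Signs turned only for members whose intervals span 0. Ezh2 turned to -0.14 in females and -0.022 without zQ175:Msh3-/- male 4. Eed turned to -0.024 in males, -0.043 without choroid-rich mice, -0.0046 without Msh3-/- female 4 and -0.0042 without zQ175:Msh3-/- male 4. Jarid2 turned to 0.035, 0.034 and 0.035 in the TPM fits, 0.034 in females and 0.0045 without cortex-rich mice. Cbx2 turned to -0.062 in females, -0.022 without Msh3-/- male 3 and -0.01 without zQ175:Msh3-/- male 4. Bmi1 missed the adjusted threshold in males alone (0.11) and females alone (0.19).

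TPM moved the median of all genes to 0.08 and the share of calls that were higher from 44.0% to 68.5%, and between wild-type and zQ175 mice from 40.6% to 59.9%. On that scale Bmi1 was at 0.25 and Ezh1 at 0.11 (adjusted p = 1.41e-05 and 0.0453 by limma). Leaving out the 4 cortex-rich or the 7 choroid-rich mice was chosen after seeing the data and left Sfmbt2 at 1.48 and 1.44.

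Mice that share a replicate number did not deviate together (correlations -0.13 to 0.21 over 7 pairs, 1 of 7 closest to its own number). With the number as a replicate block 1694 genes and 1 member were called, Sfmbt2 was at 1.46, and En2 lost its call (0.46, adjusted p = 0.0657 by edgeR). Sex could not be fitted with the block.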
